A study of Mus musculus with 92 samples.

Results

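The regions described here are CTCF binding sites that were called in only 1 of 4 cohesin-mutant genotypes of mouse germline stem cells (GSC), cultured cells of the spermatogonial lineage. Chromatin immunoprecipitation followed by sequencing (ChIP-seq) of CTCF gave 1 peak list per genotype, each pooled over 2 replicates. Peaks that overlapped by at least 1 bp were merged into 45193 intervals on chromosomes 1 to 19. Of these, 4492 intervals were overlapped by exactly 1 list, 9.94% of all merged intervals. They are called one-genotype intervals below, and the 35597 intervals called in all 4 genotypes are called shared. The intervals were chosen by these CTCF calls, so their number, fold enrichment and width are a description with no test.

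Of the 4 genotypes, 3 are named by the STAG subunit of cohesin that remained, and STAG3-knockout by the one that was lost. STAG3-only GSC carried knockouts of Stag1 and Stag2, STAG2-only GSC of Stag1 and Stag3, STAG1-only GSC of Stag2 and Stag3, and STAG3-knockout GSC of Stag3 alone. No CTCF list of wild-type cells was used here, and Stag3 was lacking in 3 of the 4 genotypes. All GSC were of the AAG line, which carries Acrosin-EGFP and beta-Actin-EGFP, and had been sorted for that fluorescence. The one-genotype intervals were set against 26 peak lists of wild-type cells, 1 per library. These were 10 lists of STAG1 and 13 of STAG2 over 5 cell types, and 3 of STAG3 in GSC. The cell types form a path to the germline in culture: ESC (embryonic stem cells), the more primed EpiLC (like epiblast), germ cell precursors induced from these and labelled d2PGCLC and d4c7PGCLC, and GSC. The cells other than GSC were of another line, BVSC, with the reporters Blimp1-mVenus and Stella-ECFP, and the PGCLC had been sorted for Blimp1-mVenus. Cell type and line cannot be told apart for GSC, and peak lists hold no expression with which the labelled cell types could be checked. The labels do not say whether replicates or mutant lines came from separate cultures or clones.

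CTCF is a zinc-finger protein that binds a long, asymmetric DNA motif. Cohesin is a ring of SMC1, SMC3 and RAD21 with 1 of the STAG subunits, and it extrudes chromatin loops until it meets bound CTCF, so cohesin peaks in mammalian cells lie largely at CTCF sites. STAG1 and STAG2 are the STAG subunits of dividing somatic cells, and STAG3 is best known from meiotic cohesin.

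One-genotype intervals at promoters show what DNA such sites cover. Promoter sequences were not available for every autosome, so intervals at gene starts elsewhere, some of them possibly stronger, were not ranked. For each genotype the sequence with the highest fold enrichment among the available ones is shown. For STAG2-only a second sequence of the same gene family is added. Each is the 250 bases upstream of a RefSeq gene start (GRCm38.p6), written 5′ to 3′ on the strand of the gene, and capitals mark the bases inside the one-genotype interval.
Slc50a1: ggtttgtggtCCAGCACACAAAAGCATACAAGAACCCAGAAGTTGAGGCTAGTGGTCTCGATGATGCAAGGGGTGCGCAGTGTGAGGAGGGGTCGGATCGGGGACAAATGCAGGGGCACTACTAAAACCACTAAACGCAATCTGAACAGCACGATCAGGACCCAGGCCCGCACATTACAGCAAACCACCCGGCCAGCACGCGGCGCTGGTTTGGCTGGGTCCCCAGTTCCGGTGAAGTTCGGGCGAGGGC
Gm38525: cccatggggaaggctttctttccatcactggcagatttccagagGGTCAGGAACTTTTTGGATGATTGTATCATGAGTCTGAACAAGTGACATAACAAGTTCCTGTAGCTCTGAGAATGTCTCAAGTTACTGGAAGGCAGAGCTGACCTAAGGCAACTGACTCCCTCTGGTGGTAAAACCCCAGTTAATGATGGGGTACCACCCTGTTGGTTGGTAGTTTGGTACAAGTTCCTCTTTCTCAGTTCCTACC
Trim30d: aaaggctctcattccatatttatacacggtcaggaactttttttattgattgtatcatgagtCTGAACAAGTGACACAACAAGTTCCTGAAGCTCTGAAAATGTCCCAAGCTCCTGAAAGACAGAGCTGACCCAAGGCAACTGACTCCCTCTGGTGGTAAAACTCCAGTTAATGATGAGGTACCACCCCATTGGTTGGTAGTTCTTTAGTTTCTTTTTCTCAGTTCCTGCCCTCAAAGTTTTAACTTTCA
Susd6: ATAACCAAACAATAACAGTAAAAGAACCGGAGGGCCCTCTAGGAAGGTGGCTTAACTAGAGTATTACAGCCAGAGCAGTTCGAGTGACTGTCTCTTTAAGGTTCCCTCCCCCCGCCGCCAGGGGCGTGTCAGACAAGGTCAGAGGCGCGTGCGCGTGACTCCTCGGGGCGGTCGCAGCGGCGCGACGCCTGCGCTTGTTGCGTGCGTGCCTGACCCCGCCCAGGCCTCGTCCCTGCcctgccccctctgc
Cr2: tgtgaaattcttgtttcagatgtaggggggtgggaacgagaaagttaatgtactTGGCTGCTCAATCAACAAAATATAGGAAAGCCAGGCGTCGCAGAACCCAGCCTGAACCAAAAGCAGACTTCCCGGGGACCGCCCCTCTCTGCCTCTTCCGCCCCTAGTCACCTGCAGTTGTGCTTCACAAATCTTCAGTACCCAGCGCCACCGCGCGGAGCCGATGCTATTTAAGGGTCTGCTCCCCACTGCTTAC
Slc50a1, a sugar transporter of the SWEET family, lies on the minus strand with the bases shown at chr3:89270571-89270820 and had its interval in STAG3-only GSC. The predicted gene Gm38525 (chr7:104369882-104370131, minus strand) and Trim30d (chr7:104507850-104508099, minus strand), of the tripartite motif family, had theirs in STAG2-only GSC. Susd6 (chr12:80790282-80790531, plus strand), a sushi-domain gene, had its interval in STAG1-only GSC. Cr2 (chr1:195176720-195176969, minus strand), a complement receptor, had its interval in STAG3-knockout GSC. The fold enrichment in the authors' lists was 7.50 at Slc50a1, 5.76 at Gm38525, 5.60 at Trim30d, 5.83 at Susd6 and 6.94 at Cr2.

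A reduced form of the CTCF core motif, CCANNAGNNGG, was searched on both strands of these sequences. It was chosen after some of the sequences had been seen. The bases shown of Gm38525 and of Trim30d each held 1 match, inside the capitals and on the opposite strand, where it reads CCCTCTGGTGG in the direction printed. The bases shown of Slc50a1, Susd6 and Cr2 held 0 matches. The second sequences taken for these genotypes, at Rtel1 (STAG3-only), Pik3ip1 (STAG1-only) and Pparg (STAG3-knockout), are not shown and held 0 matches as well. Of all 20063 promoter windows of 300 bases (250 upstream and 50 downstream of a gene start, on the 18 autosomes with promoter sequences), 7.32% held the motif. Of the 160 windows that a one-genotype interval overlapped, 23 held it (14.4%, Wilson 95% interval 9.77% to 20.6%), and of the 1592 windows that a shared interval overlapped, 278 did (17.5%, 15.7% to 19.4%). By genotype, 8 of 37 such windows held it in STAG3-only, 4 of 16 in STAG2-only, 5 of 47 in STAG1-only and 6 of 60 in STAG3-knockout GSC. A match is a description of the letters and no evidence of binding. Wilson intervals here and below cover counting error only, since neighbouring sites of 1 list are not replicates. Windows in the tripartite motif and other multigene families resemble each other, so reads could have been placed on either copy.

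STAG3-knockout GSC contributed 2311 of the 4492 one-genotype intervals, STAG3-only GSC 1314, STAG1-only GSC 549 and STAG2-only GSC 318. The longer lists gave more such intervals: the STAG3-knockout list held 43877 peaks, the STAG3-only list 41282, the STAG1-only list 40732 and the STAG2-only list 39639. With each list reduced to its 39639 highest-scoring peaks, the counts became 1096 in STAG3-knockout, 1150 in STAG3-only, 661 in STAG1-only and 743 in STAG2-only GSC, and the STAG3-knockout list no longer gave the most. Without the STAG3-knockout list, 1997 intervals were called only in STAG3-only, 1446 only in STAG1-only and 554 only in STAG2-only GSC. The depth behind each list is unknown, and the absence of a call does not show that CTCF was absent.

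The one-genotype intervals were weak and narrow as a class. Their median fold enrichment was 4.84, against 5.49 for intervals of 2 genotypes, 6.58 for intervals of 3 genotypes and 23.95 for shared intervals (the highest of the lists that called each interval). Their median width was 223 bp, against 263 bp, 295 bp and 457 bp for intervals of 2, 3 and all 4 genotypes. By genotype, the median fold enrichment was 5.32 in STAG3-knockout, 4.64 in STAG1-only, 4.61 in STAG2-only and 4.53 in STAG3-only GSC. Of all one-genotype intervals, 156 lay within 500 bp of a peak of another genotype's list and 315 (7.01%) within 1000 bp. The median distance to the nearest peak of another list was 14.98 kb. The median distance to a shared interval was 24.7 kb in STAG3-knockout GSC, and 15.7 kb in STAG3-only, 15.6 kb in STAG2-only and 13.7 kb in STAG1-only GSC.

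**Figure D1:**
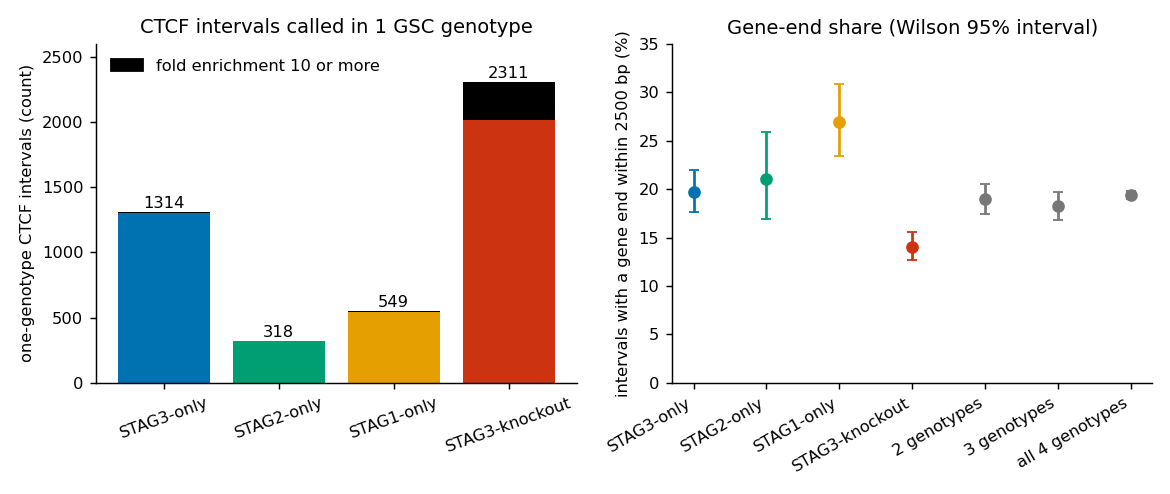
Left, the number of one-genotype CTCF intervals per genotype, with the share of fold enrichment 10 or more in black. Right, the percentage of intervals with a gene end within 2500 bp, with Wilson 95% intervals, for one-genotype intervals of each genotype and for intervals of 2, 3 and all 4 genotypes; STAG1-only lies highest at 26.96% and STAG3-knockout lowest at 14.1%.

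The position of the intervals relative to genes differed between the genotypes. A start or end of a protein-coding gene lay within 2500 bp of 26.96% of the STAG1-only intervals (148 of 549, Wilson 95% interval 23.4% to 30.8%). The share was 21.1% in STAG2-only (67 of 318, 16.9% to 25.9%), 19.7% in STAG3-only (259 of 1314, 17.6% to 21.9%) and 14.1% in STAG3-knockout GSC (325 of 2311, 12.7% to 15.5%). Shared intervals had a gene end nearby in 19.4% of cases, and all merged intervals in 19.1%. The STAG1-only share was 7.59 percentage points above and the STAG3-knockout share 5.30 points below that of the shared intervals, both outside counting error, while the shares of STAG2-only and STAG3-only lay within it. With 1 pooled list per genotype, these differences have no replicate check. At promoter windows STAG1-only intervals again had the highest share: 43 of 533 STAG1-only intervals overlapped one (8.07%, 6.04% to 10.7%), against 13 of 307 in STAG2-only (4.23%), 31 of 1267 in STAG3-only (2.45%), 56 of 2244 in STAG3-knockout GSC (2.50%) and 1422 of 34566 shared intervals (4.11%). Gene bodies held 54.8% of STAG1-only, 52.7% of STAG3-only, 50.9% of STAG2-only and 45.7% of STAG3-knockout intervals, against 50.8% of shared intervals.

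Among 20665 protein-coding genes on these chromosomes, 922 (4.46%) had a one-genotype interval at an end, while 39% had any merged interval there. Of 20 genes with known roles in spermatogonia, 3 had one. Gfra1, the receptor subunit for the niche factor GDNF, had a STAG3-knockout interval of 200 bp at chr19:58455245-58455444, 502 bp from an end of the gene, in a place with wild-type STAG2 peaks in 11 of 13 lists. Lhx1, a homeobox factor of GSC self-renewal, had a STAG1-only interval of 201 bp at chr11:84525937-84526137, with STAG2 peaks in 9 of 13 lists and no peak in any GSC list. Cd9, a tetraspanin used as a surface marker of these cells, had a STAG3-only interval of 203 bp at chr6:125462726-125462928 and no STAG peak in any list. All 3 were weak, with fold enrichments of 4.03, 4.04 and 4.37.

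No gene of the lists for cohesin and CTCF (19 genes), meiosis (22), imprinting (23) or the piRNA pathway (16) had a one-genotype interval at an end. At a share of 4.46% of all genes, lists of this size hold few or none, so these counts say nothing about the lists. A shared interval lay at an end of 31.6%, 36.4%, 30.4% and 31.3% of their genes, against 32.8% of all protein-coding genes. None of 5 Sertoli cell genes and 6 fibroblast genes, chosen as other cell types that a GSC culture can hold, had a one-genotype interval there. Among 39 Hox genes only Hoxc13 did, in STAG2-only GSC at chr15:102920689-102920904, a site with STAG2 peaks in all 13 lists. Of the clustered protocadherin genes, whose promoters are a textbook target of CTCF, 6 of 57 had a one-genotype interval (10.5%) and 51 had a shared one. The 4 in STAG3-knockout GSC were Pcdhb12, Pcdhb18, Pcdhb19 and Pcdhb20, with fold enrichments of 4.20 to 7.42 and 1 interval each shared by the neighbours Pcdhb18 and Pcdhb19 and by Pcdhb19 and Pcdhb20, and the 2 in STAG3-only GSC were Pcdhga1 and Pcdhgc3. Olfactory receptor genes had a one-genotype interval in 7 of 1100 cases (0.636%) and a shared one in 28. These genes lie in arrays of similar copies, where reads can be placed on more than 1 gene.

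**Figure D2:**
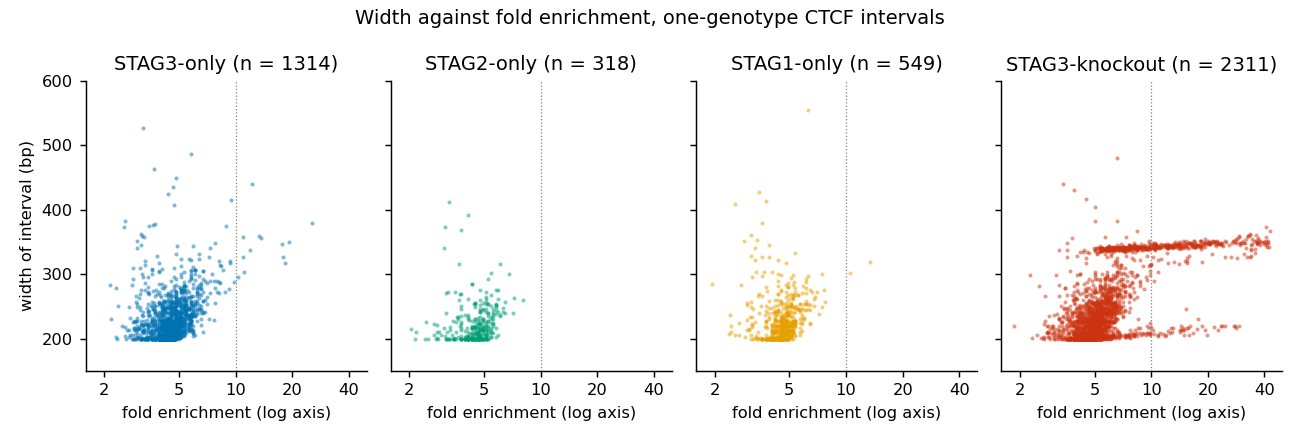
Width in bp against fold enrichment (log axis) of each one-genotype interval, 1 panel per genotype, with a dotted line at a fold enrichment of 10. STAG3-knockout intervals form narrow bands of width that reach a fold enrichment of 42.6, with 242 of the 293 intervals at 10 or more between 320 and 380 bp wide.

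A set of strong intervals was found almost wholly in STAG3-knockout GSC. Of its 2311 one-genotype intervals, 293 (12.7%) had a fold enrichment of 10 or more, against 13 in STAG3-only, 2 in STAG1-only and 0 in STAG2-only GSC. Of all merged intervals, 68.3% reached it in at least 1 list. The value of 10 was chosen after the data were seen, and what follows describes these intervals without a test. They lay on all 19 chromosomes, and their widths were uniform: 242 of 293 were 320 to 380 bp wide and 40 were 200 to 230 bp wide. Of the 28893 shared intervals with a fold enrichment of 10 or more in the STAG3-knockout list, 5027 fell in the first range of widths and 2 in the second. Many of those shared intervals were stronger and wider. At a fold enrichment of 10 to 15, shared intervals had a median width of 355 bp (quartiles 331 to 381 bp). STAG3-knockout intervals of that strength had a median of 343 bp (333 to 345 bp). Of the strong STAG3-knockout intervals, 11 (3.75%) had a gene end nearby, and the median distance to a shared interval was 79.1 kb, against 21.5 kb for the STAG3-knockout intervals of lower fold enrichment.

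STAG peaks were nearly absent from these strong intervals. Of the 293, 8 had a STAG peak in any of the 26 lists (2.73%, Wilson 95% interval 1.39% to 5.29%), against 27769 of the 28893 shared intervals of that strength (96.1%). No single STAG list reached more than 2.39% of them. The 5 strongest lay in the gene body of Ptprd, a receptor tyrosine phosphatase (chr4:78043832-78044174, fold enrichment 42.1), in that of Fam172a (chr13:77863698-77864049, 41.8), at an end of Esp38, a secreted peptide of exocrine glands (chr17:39952338-39952686, 42.0), 59.5 kb from the vomeronasal receptor gene Vmn2r41 (chr7:8078068-8078434, 42.6), and 1457 kb from Pcdh7, a protocadherin (chr5:59589952-59590294, 41.4). None of these 5 had a STAG peak in any list. Without a replicate list per genotype, a strong interval of 1 pooled library and one of both cannot be told apart.

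The 13 strong STAG3-only intervals differed from the strong STAG3-knockout intervals in their STAG peaks. Their widths were alike, with 9 of 13 at 320 to 380 bp. Their median distance to a shared interval was 49.7 kb, against 15.6 kb for STAG3-only intervals of lower fold enrichment. Of the 13, 11 had a STAG peak, in both ESC lists of STAG2 for all 11. In the 8 GSC lists 0 of the 13 had one, against 18493 of the 26888 shared intervals with a fold enrichment of 10 or more in the STAG3-only list. The strongest lay 106 kb from Sfmbt2, a Polycomb-group gene (chr2:10701459-10701838, fold enrichment 25.6), with STAG2 peaks in 9 of 13 lists. The next lay at a start or end of Pcdhga1 (chr18:37661500-37661849, 19.2), with STAG2 peaks in 8 lists, and one near Defa20, an alpha-defensin of the gut (chr8:21502249-21502595, 17.6), had them in 10. A pair near the predicted genes Gm4513 and Gm4565 on chromosome 7, with fold enrichments of 18.3 and 17.96, had STAG peaks in 6 lists and in none. In STAG1-only GSC, the 2 strong intervals lay in Pmfbp1, a gene of the sperm head-tail junction (13.5), and 5.18 kb from the olfactory receptor gene Olfr698 (10.5), each with a peak in 1 STAG2 list. The next in that genotype lay near Med23, a Mediator subunit gene (7.78), in Brinp2 (7.63) and near Tbx5, a T-box factor (7.48), with no STAG peak in any list. In STAG2-only GSC the strongest intervals were near Pcdh15 (8.07), Plekha1 (7.24), Dab2ip (7.08), Tmem132b (6.75) and Lmx1a (6.42), and 3 of these 5 had STAG2 peaks, in 5 to 8 lists.

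**Figure D3:**
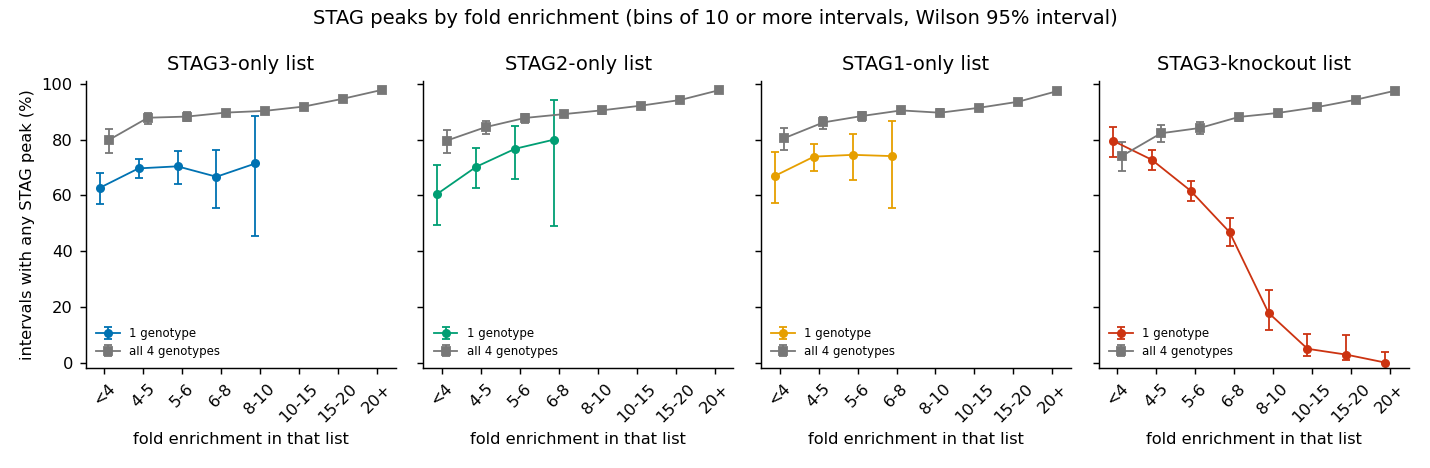
Percentage of CTCF intervals with a STAG peak in any of 26 wild-type lists, by fold enrichment in the genotype's own list, for one-genotype (coloured circles) and shared (grey squares) intervals, in bins of 10 or more intervals with Wilson 95% intervals. In the STAG3-knockout panel the one-genotype intervals go from 79.6% below 4 to 0% at 20 and above, while the shared intervals stay between 74.2% and 97.5%.

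Fold enrichment and STAG peaks ran in opposite directions in the STAG3-knockout one-genotype intervals and in shared intervals. Below a fold enrichment of 4, 168 of 211 STAG3-knockout intervals had a STAG peak in at least 1 list (79.6%), against 74.2% of shared intervals with such a value in the same list. Between 5 and 6 the share was 61.6%, against 84.2% of shared intervals, and between 8 and 10 it was 17.9%, against 89.5%. At 20 and above, 0 of 102 STAG3-knockout intervals had one, against 97.5% of shared intervals. The share near a gene end went the same way, with 31.3% of STAG3-knockout intervals below 4 and 2.94% at 20 and above, against 28.1% and 18.2% of shared intervals. In STAG3-only GSC the share with a STAG peak was 62.7% below 4 and 70.4% between 5 and 6, against 79.9% and 88.2% of shared intervals. STAG peaks thus showed no such fall in STAG3-only GSC. The gene-end share, in contrast, was lower at higher values in the other genotypes too. Below 4 and between 5 and 6 it was 26.7% and 13.9% in STAG3-only GSC. It was 25% and 15.1% in STAG2-only, and 36% and 25.5% in STAG1-only GSC.

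Across all strengths, 2775 of the 4492 one-genotype intervals had a wild-type STAG peak in at least 1 of the 26 lists (61.8%), against 94.4% of shared and 89.8% of all merged intervals. The share was 72.9% in STAG1-only, 69.5% in STAG2-only, 68.2% in STAG3-only and 54.4% in STAG3-knockout GSC. The cell types differed. A STAG peak in at least 1 of the 8 GSC lists was present at 472 one-genotype intervals (10.5%), against 58.5% of shared and 48.7% of all merged intervals. At 2303 one-genotype intervals (51.3%) the STAG peaks were found in the other 4 cell types and in no GSC list, against 35.9% of shared intervals. This sets 18 lists against 8, and the GSC lists of STAG1 and STAG2 were the shorter ones. GSC lists held 9641 to 10778 peaks for STAG1, against 14720 or more elsewhere. For STAG2 they held 13698 to 25979, against 35799 or more. The part of list number and length in these shares was not tested. STAG peaks in all 18 lists of those 4 cell types were found at 126 of the 4492 one-genotype intervals, against 10680 of the 35597 shared intervals. No STAG peak in any list was found at 1717 one-genotype intervals, against 2001 shared intervals.

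**Figure D4:**
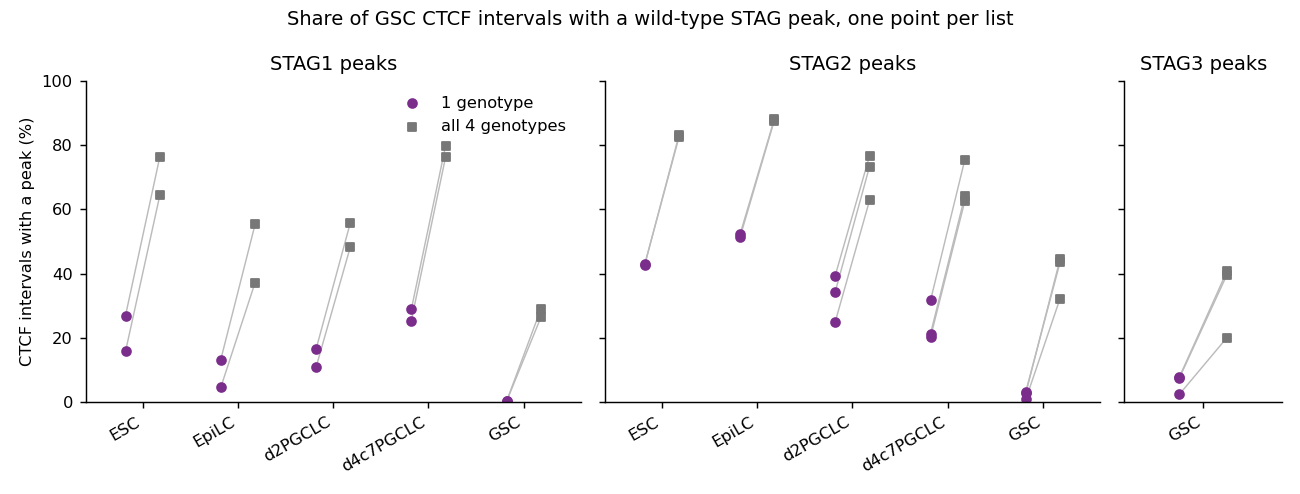
Percentage of GSC CTCF intervals with a wild-type STAG1, STAG2 or STAG3 peak, 1 point per STAG list and a line joining the values of the same list, for one-genotype (left) and shared (right) intervals in each cell type. In each of the 26 lists the one-genotype value is the lower one, and the STAG1 and STAG2 values of one-genotype intervals lie nearest to 0 in GSC.

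Each STAG list covered fewer one-genotype than shared intervals. In ESC, STAG2 peaks lay at 42.8% and 42.8% of one-genotype intervals in the 2 lists, against 83.1% and 82.6% of shared intervals. In EpiLC, STAG2 peaks lay at 52.2% and 51.3%, against 88.1% and 87.7%. In d2PGCLC the 3 STAG2 lists gave 39.4%, 24.98% and 34.4%, against 76.7%, 62.8% and 73.3%. The groups did not overlap in any of these cell types. In d4c7PGCLC the 3 lists gave 31.6%, 20.2% and 21.2%, against 75.4%, 62.6% and 64.0%. In GSC the 3 STAG2 lists gave 2.67%, 0.757% and 3.14%, against 44.5%, 32.2% and 43.5%. The GSC lists stood apart, with one-genotype shares near 0 in each of the 3. They were also the shortest STAG2 lists, with 13698 to 25979 peaks against 35799 or more in each of the others.

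STAG1 peaks, too, lay at fewer one-genotype than shared intervals in each list. In ESC the 2 STAG1 lists lay at 26.9% and 15.7% of one-genotype intervals, against 76.3% and 64.3% of shared intervals. In EpiLC they lay at 4.52% and 13.2%, against 37.2% and 55.3%, and in d2PGCLC at 10.8% and 16.4%, against 48.3% and 55.8%. In d4c7PGCLC they lay at 25.3% and 28.8%, the highest mean of the 5 cell types, against 76.3% and 79.8%. In GSC, STAG1 peaks were found at 7 and 8 of the 4492 one-genotype intervals (0.156% and 0.178%), against 26.3% and 28.9% of shared intervals.

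Over the lists, the share of one-genotype intervals with a STAG1 peak averaged 14.2%, against 54.9% for shared intervals, a mean difference of −40.7 percentage points (SD 9.33, lower in 10 of 10 lists, two-sided exact sign-flip permutation test, p = 0.00195). For STAG2 the means were 28.3% and 67.4%, a difference of −39.2 points (SD 3.39, lower in 13 of 13 lists, same exact test, p = 0.000244). Both are the smallest p that the number of lists allows, and with the 5 cell types as units the exact p was 0.0625 for each, again the smallest possible. Among intervals of fold enrichment below 10 in both classes, the difference was −18.5 points for STAG1 and −19.2 for STAG2, and with STAG lists of equal length it was −23.2 and −21.9. The part of peak strength in the difference was not tested beyond these values.

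STAG2 peaks lay at more one-genotype intervals than STAG1 peaks did in 4 of 5 cell types. The mean share was 42.8% for STAG2 and 21.3% for STAG1 in ESC, 51.7% and 8.85% in EpiLC, 32.9% and 13.6% in d2PGCLC, and 2.19% and 0.167% in GSC, while in d4c7PGCLC it was 24.3% for STAG2 and 27.1% for STAG1. The mean difference over cell types was 16.6 percentage points (SD over cell types 18.1, two-sided exact permutation of the labels within cell types, 36000 arrangements, p = 0.00364). The STAG2 lists were longer than the STAG1 lists in ESC (72729 to 73195 peaks, against 29222 to 39055) and in EpiLC, d2PGCLC and GSC, while in d4c7PGCLC the lengths overlapped (35799 to 53988 peaks, against 38491 to 42013). With all lists cut to 9641 peaks the difference was 0.563 points (exact permutation test, p = 0.000111).

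**Figure D5:**
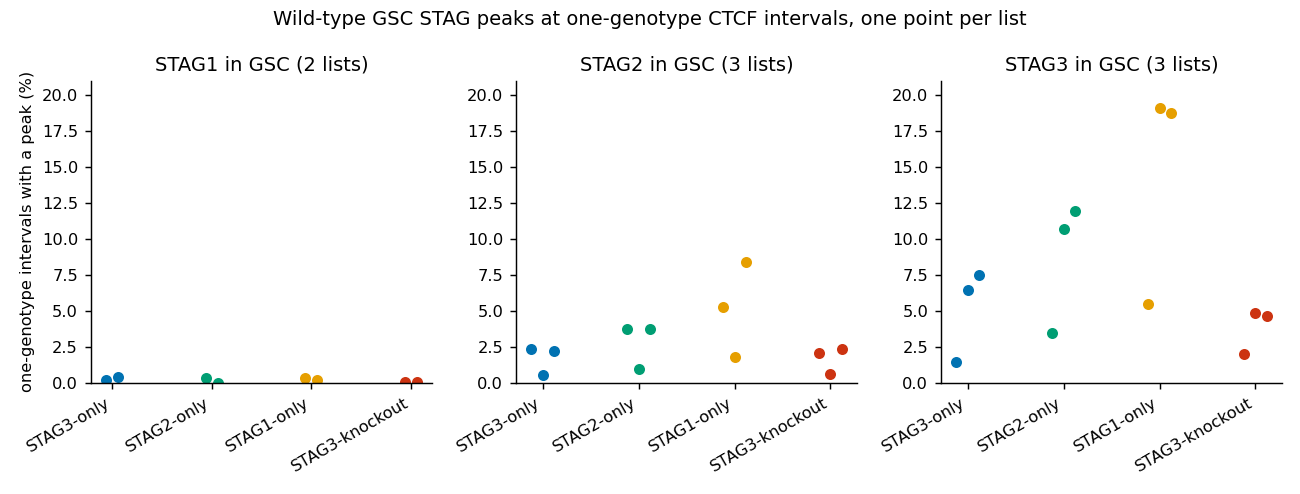
Percentage of one-genotype CTCF intervals with a wild-type STAG1, STAG2 or STAG3 peak in GSC, 1 point per STAG list, by the genotype in which the CTCF interval was called. STAG3 peaks reach 19.1% of STAG1-only intervals and at most 4.85% of STAG3-knockout intervals, and STAG1 peaks at most 0.381% in any of the 4 genotypes.

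STAG3 had the highest mean share of one-genotype intervals among the subunits in GSC, though its lowest list lay below 2 of the 3 STAG2 lists. The STAG3 lists held 12832 to 39681 peaks, against 13698 to 25979 in the STAG2 and 9641 to 10778 in the STAG1 lists. The 3 STAG3 lists lay at 2.36%, 7.48% and 7.75% of them, against 20.04%, 39.6% and 40.7% of shared intervals, a mean of 5.86% ± 3.04 against 33.5% ± 11.7 (SD, n = 3 lists). Of the STAG1-only intervals, the 3 lists covered 5.46%, 19.1% and 18.8%. They covered 3.46%, 10.7% and 11.9% of the STAG2-only intervals, 1.45%, 6.47% and 7.53% of the STAG3-only intervals, and 1.99%, 4.85% and 4.67% of the STAG3-knockout intervals. STAG1-only intervals were the highest in each of the 3 lists. With 3 lists no p below 0.25 could be reached, and none was computed between the genotypes. Among intervals of fold enrichment below 10 in both classes the difference from shared intervals was −4.83 points, against −27.6 points over all intervals, and with lists of equal length it was −17.0 points.

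Where STAG3 did lie at a one-genotype interval, a gene end was usually near. STAG3 peaks in at least 2 of 3 lists were found at 272 one-genotype intervals (6.06%), against 35.2% of shared and 29.1% of all merged intervals. Of these 272, 205 had a gene end within 2500 bp (75.4%), against 3442 of the 12537 shared intervals with STAG3 (27.5%). Without STAG3 in 2 lists, the gene-end share was 14.1% for one-genotype and 14.97% for shared intervals. The share lay between 74.6% and 76.7% in each genotype: 74.6% of 71 such intervals in STAG3-only, 76.7% of 30 in STAG2-only, 76.2% of 84 in STAG1-only and 74.7% of 87 in STAG3-knockout GSC. The STAG1-only set differed in how many intervals carried STAG3 (15.3%, against 9.43% in STAG2-only, 5.40% in STAG3-only and 3.76% in STAG3-knockout GSC). Intervals without STAG3 in 2 lists differed by genotype as well. Their gene-end share was 18.1% in STAG1-only, 16.6% in STAG3-only, 15.3% in STAG2-only and 11.7% in STAG3-knockout GSC. Sites of 1 list are not replicates, and no test was made of this pattern, which was seen in the data first.

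Between genotypes, the STAG1 and STAG2 shares were compared over the lists, each genotype's intervals against the mean of the other 3, with p-values adjusted over the 8 comparisons. Each genotype has 1 pooled CTCF list, so these p-values measure the spread over wild-type STAG lists and no replication of a genotype. With the 5 cell types as units no p below 0.0625 could be reached, and none of the calls below would pass. STAG1 peaks lay at 12.2% of STAG1-only intervals, against 14.2% in the other 3 genotypes, a difference of −1.99 points (SD 1.50, lower in 8 of 10 lists, exact sign-flip permutation test, adjusted p = 0.0156). They lay at 14.95% of STAG3-knockout intervals, against 13.3%, a difference of 1.67 points (SD 1.22, higher in 8 of 10 lists, exact test, adjusted p = 0.0156). With STAG lists of equal length these differences were −0.87 and 0.57 points, and without intervals of fold enrichment 10 or more they were −2.61 and 3.72 points. The 2 exceptions in both were the GSC lists, where the shares were at most 0.381%. STAG3-only and STAG2-only intervals differed from the others by 0.17 and 0.15 points (exact tests, adjusted p = 0.446 and 0.730). Without intervals of fold enrichment 10 or more, the STAG3-only difference was −0.57 points (exact test, adjusted p = 0.0156).

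For STAG2, the STAG3-knockout intervals were lowest, with 26.7% against 30.4% in the other 3 genotypes, a difference of −3.71 points (SD 2.75, lower in 13 of 13 lists, exact test, adjusted p = 0.00195). That difference was not seen without the strong intervals described above: without those of fold enrichment 10 or more it was 0.02 points (exact test, adjusted p = 0.961), and with STAG lists of equal length 0.16 points (adjusted p = 0.104). STAG2-only intervals were higher by 1.93 points (30.9% against 29.0%, SD 1.51, higher in 11 of 13 lists, exact test, adjusted p = 0.00684) and STAG1-only intervals by 2.09 points (31.0% against 28.9%, SD 2.53, 9 of 13 lists, exact test, adjusted p = 0.0215). Both fell short of the threshold without the strong intervals (0.71 and 0.98 points, exact tests, adjusted p = 0.0660 and 0.249), and the STAG1-only difference was −0.87 points with lists of equal length (exact test, adjusted p = 0.0171) and 1.04 points where an overlap of at least 50% was asked (adjusted p = 0.265). STAG3-only intervals differed by −0.31 points (exact test, adjusted p = 0.446), and by −1.72 points without the strong intervals (adjusted p = 0.00195). All 8 differences were small beside the −39.2 points between one-genotype and shared intervals in the STAG2 lists.

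The one-genotype intervals with STAG peaks in the most lists were picked by that count, so their peaks in many cell types restate the choice. In STAG1-only GSC, an interval 211 bp from a start or end of Cntn3, a neuronal contactin (chr6:102564125-102564403), had peaks in 23 of 26 lists, 7 of the 8 GSC lists among them. Another, at Arid1a of the BAF chromatin remodeller (chr4:133754249-133754545), had them in 20, with STAG2 in all 13 and STAG3 in all 3 lists. In STAG2-only GSC, Tob1, an antiproliferative gene (chr11:94211380-94211647), had them in 18, with STAG3 in all 3, and Pdzd2 (chr15:12577135-12577340) in 19. In STAG3-only GSC, Sulf2, a heparan sulfatase (chr2:166155583-166155813), had peaks in 21 lists. In STAG3-knockout GSC, Ago2, an Argonaute of RNA silencing (chr15:73185346-73185602), had peaks in 21 lists with STAG2 in all 13, and Ctbp1, a transcriptional co-repressor (chr5:33275127-33275405), in 21 with STAG3 in all 3. The gene Bcl11b, a zinc-finger factor of T cells, had 1 such interval in STAG3-only (chr12:108004084-108004290) and another in STAG1-only GSC (chr12:108006351-108006590), each with peaks in 20 lists. The fold enrichment of these CTCF intervals was low throughout, with 2.96 at Pdzd2 as the lowest and 6.13 at Cntn3 as the highest value among the genes named here.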

How the data were processed

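Of 92 samples, those behind 30 peak lists were used, namely 4 CTCF lists of mutant GSC and 26 STAG lists of wild-type cells. Other antibodies, input libraries and the other mutant samples were not analysed here. Per the submitters' processing notes, the builds were mm10 and GRCm38.p3. The tools in those notes were MACS2 (version not stated), deepTools 3.5.0, bedtools 2.29.2, SAMtools 1.7, Bowtie2 2.3.4.1, cutadapt 1.9.1 and Trim Galore 0.4.1. What each tool did, with which options and control library, is not given in the sources used here. Each peak has, in the authors' lists, a fold enrichment over background, a linear ratio, and a score. Significance stands in the deposited lists as −log10 p and −log10 q, with 2.00 as the lowest −log10 q in any list. Per the labels, 1 CTCF list stands for both replicates of a genotype, and the peak names show that they were called together.

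CTCF peaks on chromosomes 1 to 19 were merged where they overlapped by at least 1 bp and grouped by the lists that overlapped each merged interval. A STAG peak counted where it overlapped an interval by at least 1 bp. Gene ends were the start and end of 20665 protein-coding genes of RefSeq GRCm38.p6, whose primary chromosomes are those of mm10, with windows of 2500 bp to each side. The members, gene lists, motif and tests were chosen with earlier results of these data known. The text names the 5 intervals per genotype of highest fold enrichment, intervals among the 5 per genotype with STAG peaks in the most lists, listed genes with an interval at an end, and the promoters shown. Tests were exact permutation tests over lists in Python 3.11.15 with NumPy 2.4.6, pandas 2.3.3 and SciPy 1.17.1, checked on simulated data. A number shared by STAG1 and STAG2 lists of a cell type was not taken to pair them. P-values measure the spread between lists, which may be technical. The depth behind a list is unknown.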

Additional observations from a re-analysis of the deposited data

Results flagged for a closer look

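The STAG1 shares of the genotypes' intervals, each minus the mean of the other 3 genotypes, took opposite signs in every list of some pairs of cell types. None of these differences between cell types was tested, and each cell type has 2 STAG1 lists. For STAG1-only intervals the mean was −3.11 points in ESC lists, −1.69 points in EpiLC lists, −3.54 points in d2PGCLC lists and −1.70 points in d4c7PGCLC lists, against 0.0977 points in GSC. For STAG3-knockout intervals it was 2.31 points in ESC lists, 2.94 points in EpiLC lists, 1.21 points in d2PGCLC lists and 2.09 points in d4c7PGCLC lists, against −0.180 in GSC. In both cases the GSC value rests on 7 and 8 one-genotype intervals with a STAG1 peak. For STAG2-only intervals the mean was 0.572 points in ESC and 2.17 in d2PGCLC, and −0.823 in EpiLC and −1.13 in d4c7PGCLC. For STAG3-only intervals it was 0.232 points in ESC, 0.163 in d2PGCLC and 0.729 in d4c7PGCLC, and −0.427 in EpiLC.

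The sex chromosomes were outside the comparisons and also held intervals of a single genotype. On X there were 239 of 1427 merged intervals (16.7%), 142 of them in STAG3-knockout and 61 in STAG3-only GSC. On Y there were 291 of 487 (59.8%), 209 in STAG3-knockout, 78 in STAG3-only, 3 in STAG1-only and 1 in STAG2-only GSC. A STAG peak in any list lay at 98 of the 239 on X, against 871 of 965 shared intervals there. On Y it lay at 6 of the 291, and few shared intervals of Y had one either (13 of 61).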

How the results depend on the processing

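The count of one-genotype intervals lay between 3650 and 4537 in all settings. Lists of equal length gave 743 intervals in STAG2-only and 1096 in STAG3-knockout GSC, and leaving out the STAG3-knockout list, chosen after seeing the data, gave 1997 in STAG3-only, 1446 in STAG1-only and 554 in STAG2-only GSC. The STAG3-knockout gene-end difference was −3.72 points with a window of 1000 bp and −3.81 without intervals of fold enrichment 10 or more, a setting also chosen after seeing the data. In that setting the STAG3 difference from shared intervals was −4.83 points (−17.0 with STAG lists of equal length). It also gave, between genotypes, −0.57 (STAG3-only) and −0.54 points (STAG2-only) for STAG1, and −1.72 (STAG3-only), 0.71 (STAG2-only), 0.98 (STAG1-only) and 0.0224 points (STAG3-knockout) for STAG2. STAG lists of equal length gave −0.32 points (STAG3-only) for STAG1, and −1.32 (STAG3-only), −0.87 (STAG1-only) and 0.16 points (STAG3-knockout) for STAG2. An overlap of at least 50% gave 1.04 points for STAG2 in STAG1-only, and merging within 500 bp −0.36 points for STAG1 in STAG2-only GSC. The cause was not tested for any of these changes.

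Leaving out 1 list at a time gave −42.3 to −39.5 points (STAG1), −39.8 to −38.8 (STAG2) and −32.6 to −24.9 (STAG3) for one-genotype minus shared intervals, and 15.5 to 17.7 for STAG2 minus STAG1. For STAG1, the range was 0.05 to 0.26 in STAG3-only, −0.12 to 0.39 in STAG2-only, −2.23 to −1.79 in STAG1-only and 1.47 to 1.89 in STAG3-knockout GSC. For STAG2 it was −0.47 to −0.12 in STAG3-only, 1.76 to 2.14 in STAG2-only, 1.80 to 2.38 in STAG1-only and −4.00 to −3.40 in STAG3-knockout GSC. STAG1 in STAG2-only GSC changed sign without either d2PGCLC list (−0.04 and −0.12).

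With the replicate number as a block, STAG2 minus STAG1 was 16.7 points over 10 pairs (exact sign-flip test, p = 0.0156). Deviations of same-numbered lists correlated at −0.04 to 0.02, with 0 of 10 pairs above 0.1. In ESC and in EpiLC the pairs give the same value by construction, so the 10 values are not independent. The numbers were not taken to pair the lists, and these correlations cannot show whether libraries were paired.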
